A study of Rattus norvegicus with 83 samples.

Results

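The ribosomal protein genes of the rat were followed across 83 libraries of 10 groups. Members were the rows of the deposited count table whose symbol has the standard form of a cytosolic ribosomal protein (Rpl or Rps with a number, an optional a, l or x, or Rplp0, Rplp1, Rplp2 or Rpsa) and whose mean over all libraries reached 10 CPM (counts scaled to a common library total). Of 17483 symbols in the table, 81 had such a name and 77 of these passed the floor, which 5751 genes of any kind reached. The rule itself uses only names and the mean level. The members comprised 46 genes of the large (60S) subunit and 31 of the small (40S) subunit, and each had counts in all 83 libraries.

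Ribosomes are built from ribosomal RNAs and one copy each of most ribosomal proteins, so the mRNAs of these proteins are made in related amounts. They are among the most abundant mRNAs of growing cells. Most carry a 5′ terminal oligopyrimidine (TOP) start, a C followed by a run of pyrimidines, through which their translation responds to the kinase mTOR and the binding protein Larp1. Rpl5 and Rpl11 also bind, with 5S ribosomal RNA, the ubiquitin ligase Mdm2.

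The offspring came from Sprague-Dawley dams dosed by daily gavage from gestational day 7 with corn oil alone (vehicle), with methimazole at 8 or 16 mg/kg body weight per day (MMI8, MMI16), or with amitrole at 25 or 50 mg/kg per day (Ami25, Ami50). Both chemicals inhibit thyroid peroxidase, the enzyme that makes thyroid hormone. All groups, vehicle included, had thus been gavaged, and the tissue is labelled testis at 2 stages, gestational day 21 (GD21) and pup day 16 (PD16). There were 6 libraries per group at GD21, and 10 vehicle, 10 MMI8, 10 MMI16, 11 Ami25 and 12 Ami50 libraries at PD16. Litters are not given, so each p-value speaks only for the spread among the libraries, which may be technical.

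GD21 libraries held 495369 to 1627114 counts, with a median of 963356, and PD16 libraries 202270 to 1186973, with a median of 492083. The tissue label was checked against its defining markers: of 15 testis genes 13 were in the table, 2 of them at 0, and together they held 156 counts in all libraries, while genes of adrenal cortex (summed mean 8790.5 CPM in PD16 vehicle, 18676.4 in Ami25 and 20988 in Ami50) were abundant. The stage label was checked against globins: embryonic globins (Hbe1, Hbe2, Hbz, Hbg1) were a median 14.1%, 16.1% and 16.8% of all globin counts in the PD16 vehicle, MMI8 and MMI16 libraries, but 0.18% and 0.13% in PD16 Ami25 and Ami50 and 0.157% in GD21 vehicle. The group ranges did not overlap, with 11.6% to 19.4% in PD16 vehicle against 0.0891% to 0.242% in GD21 vehicle. Embryonic globins belong to early development, so the libraries labelled PD16 vehicle go against their label, and at PD16 a difference in stage and the effect of amitrole cannot be told apart. In 8 PD16 libraries, all Ami50, the Y-linked gene Eif2s3y was under 10 CPM, and in 15 libraries the liver gene Alb was at 200 CPM or more. Counts of called members that change by more than 1.5 times without these libraries are given with and without them.

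The annotated starts of some members have the TOP form. RefSeq promoter windows (build GRCr8) were at hand for 61 of the 77 members, and the 8 shown here belong to genes that the results turn on or that show the range of starts. Each line gives 30 bases, 10 before the annotated start and 20 from it, 5′ to 3′ on the gene's strand, with the pyrimidine run that begins at the start in capitals.
Rplp0, chr12:46718371-46718400, minus strand: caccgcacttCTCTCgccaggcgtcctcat
Rpl10a, chr20:6390523-6390552, plus strand: cttctgccttCTTTTCCggttcccgcagcc
Rps18, chr20:4933735-4933764, plus strand: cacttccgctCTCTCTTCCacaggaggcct
Rpl22, chr5:168117951-168117980, plus strand: gcgcccccctCCCTTTCTgcctcctctgcc
Rpl3, chr7:113507971-113508000, minus strand: gcctgctcgaTCTCTatcggcggcgtgtgg
Rpl5, chr14:1995206-1995235, minus strand: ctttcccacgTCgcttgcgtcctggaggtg
Rpl22l1, chr2:113683186-113683215, plus strand: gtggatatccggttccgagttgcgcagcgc
Rpl41, chr7:1563478-1563507, minus strand: ctcggaagtgacgacaccaagcacgccatt
The first 4 begin with C and at least 4 further pyrimidines. Rpl3 has a run that begins with T, Rpl5 a run of 2 bases, and Rpl22l1 and Rpl41 have no pyrimidine at the annotated start. Over all windows, a C followed by 4 pyrimidines stood exactly at the start of 23 of 61 members (37.7%) and of 854 of 27457 symbols in the RefSeq table (3.11%). When the run could begin within 5 bases of the start, 38 members (62.3%) and 19.0% of symbols had it. In the 300 bases from 250 before the start to 50 from it, searched on both strands, CCGGAAG, the core of many ETS factor sites, was found in 32.8% of members and 9.63% of symbols. TATAAA was found in 11.5% of members and 15.3% of symbols, and AAGATGGC, a core of YY1 sites that can overlap the start codon, in 6.56% and 3.62%. These counts describe annotated windows, which depend on how exactly a start was annotated.

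The genes in the count table are not quite a full set of ribosomal proteins. Rps9 (0.118 CPM), Rps9l1 (0.145), Rpl39l (0.432) and Rpl3l (0.531) matched by name and fell below the floor, while the members nearest above it were Rpl37a (121.7 CPM over all libraries), Rps10 (422.5) and Rps27l (446.4). At the other end, Rpl41 had a mean of 11369.9 CPM, Rps19l2 6423.8, Rplp0 5496.6 and Rpl35 5169.1. These are counts of 3′ tags without a length correction, so the order between genes was not read as an order of mRNA amounts. Rps19 and Rpl7l1 had no row, and RefSeq lists Rps19l2 also as a synonym of Rps19, which encodes the 40S protein mutated in many patients with Diamond-Blackfan anaemia. Ribosomal proteins have many processed pseudogenes and near-identical copies, and how the authors' counting split reads between them is not given, so a single member's value can include a copy's reads.

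The 77 genes took 13.3% to 32.74% of all counts of a library. In vehicle libraries the summed share was 19.14% ± 2.401 (SD, n = 6) at GD21, from 16.41% through a median of 18.45% to 23.09%, and 21.52% ± 2.007 (SD, n = 10) at PD16, from 18.56% through 21.37% to 24.08%. At PD16 the MMI8 libraries had 21.75% ± 1.543 (SD, n = 10) and the MMI16 libraries 22.46% ± 4.147 (SD, n = 10), with all MMI8 libraries inside the vehicle range. Without the 1 MMI16 library at 32.74% the MMI16 mean was 21.32% ± 2.167 (SD, n = 9). The Ami25 libraries had 15.84% ± 1.609 (SD, n = 11), from 13.39% through 15.73% to 17.95%, and every one of the 11 lay below every vehicle library. The Ami50 libraries had 16.42% ± 2.614 (SD, n = 12), from 13.3% through 15.59% to 21.06%, so most but not all lay below the vehicle range. As a log2 ratio of mean shares this was -0.44 for Ami25 and -0.39 for Ami50, against 0.02 for MMI8 and 0.06 for MMI16. No test was made of the sum, since its members were chosen as a list.

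**Figure D1:**
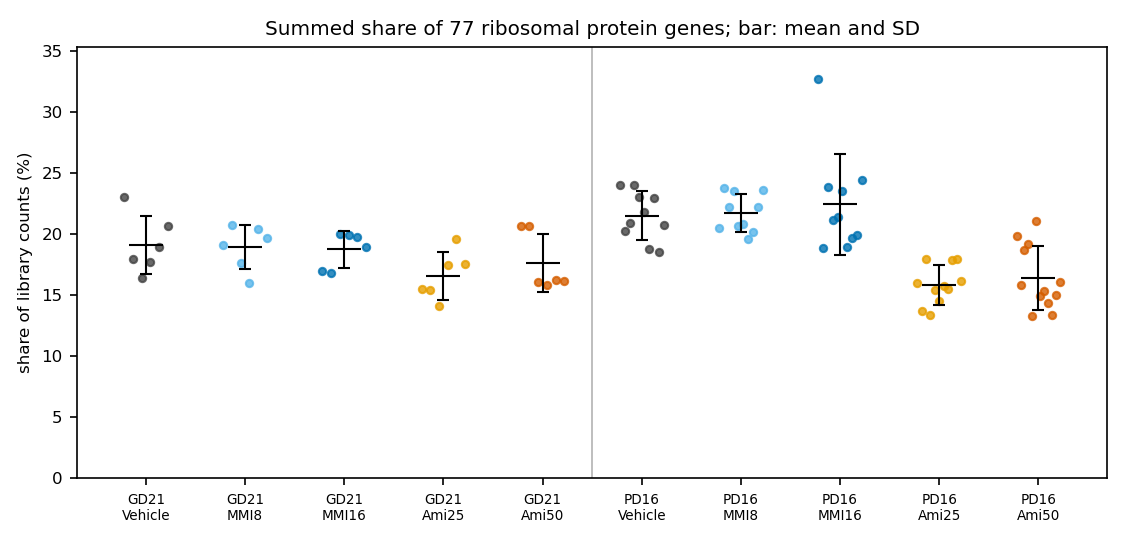
Summed share of the 77 ribosomal protein genes in percent of all counts (vertical axis) for each of the 83 libraries (points) in the 10 groups (horizontal axis), with the mean and SD of each group. The Ami25 libraries labelled PD16 lie below 18% and the PD16 vehicle libraries above it; one MMI16 library stands at 32.74%.

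Part of the denominator of these shares moved between groups. Globins took 3.81% of counts in PD16 vehicle, 9.61% in Ami25 and 8.86% in Ami50, and with globins left out of the totals the log2 ratios became -0.35 and -0.31. With adrenal cortex and medulla genes left out as well they were -0.34 and -0.29. In bulk samples such as these, fewer cells of a type and less RNA of these genes per cell cannot be told apart.

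At GD21 the groups overlapped. The share was 18.95% ± 1.797 (SD, n = 6) in MMI8, 18.76% ± 1.488 (SD, n = 6) in MMI16, 16.62% ± 1.977 (SD, n = 6) in Ami25 and 17.62% ± 2.383 (SD, n = 6) in Ami50. The lowest Ami25 library, at 14.14%, was below the vehicle minimum of 16.41%, and the highest, at 19.61%, was above the vehicle median.

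Within groups the share moved with the total of a library. Pearson's r between the share and log2 of the total was positive in 10 of 10 groups, from 0.2 (PD16 Ami25, n = 11) to 0.947 (GD21 MMI16, n = 6) with a median of 0.83, given as a description because the points are libraries that differ in depth. In PD16 vehicle r was 0.893 (Spearman's rho 0.939, n = 10) and 0.846 without the 2 libraries farthest from the median total. At GD21 the relation in vehicle rested on such libraries, since r was -0.759 over the 4 left. The fitted slopes lay between 0.63 and 6.44 percentage points of share per doubling of the total, with a median of 4.13. The cause of this relation was not tested.

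PD16 groups can be set side by side at similar totals. Between 400000 and 600000 counts, 5 vehicle libraries had a share of 19.85% ± 1.109 (SD, n = 5), 5 MMI8 libraries 22.54% ± 1.174 (SD, n = 5) and 4 MMI16 libraries 20.52% ± 2.042 (SD, n = 4). In that window 5 Ami25 libraries had 15.8% ± 1.499 (SD, n = 5) and 6 Ami50 libraries 15.27% ± 0.642 (SD, n = 6). The highest of these amitrole libraries, at 17.92%, was below the lowest vehicle library, at 18.56%, so in this window amitrole and vehicle libraries did not overlap, while MMI8 and vehicle, which overlapped over all libraries, overlapped here only at the edge (20.88% to 23.77% against 18.56% to 20.91%). The median total of the libraries in the window was 508283 in vehicle, 551457 in Ami25 and 445368 in Ami50, and what remains of a depth difference within it was not tested.

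**Figure D2:**
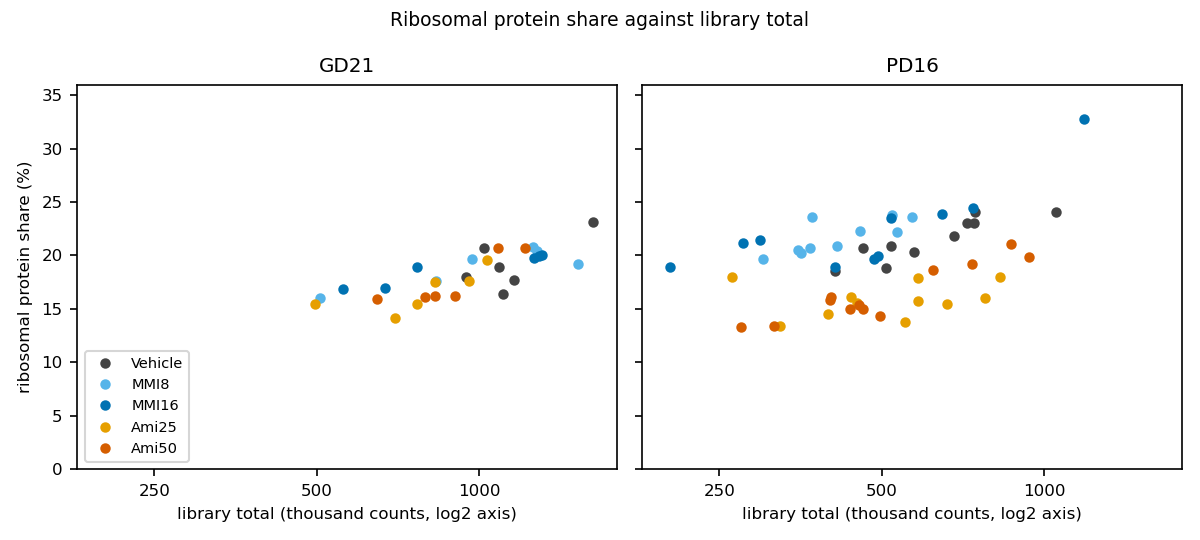
Summed share in percent (vertical axis) against the total count of each library (horizontal axis, log scale), one point per library, in separate panels for the stages labelled GD21 and PD16. Shares rise with the total in most groups, and at PD16 the amitrole libraries lie below vehicle and methimazole libraries of similar total.

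Single members shared this depth relation to different degrees. Over deviations from group means in 83 libraries, log2 CPM rose with log2 total for 72 of 77 members, with a median slope of 0.33 per doubling, where the median of all genes at the floor was -0.10. Rpl39 had the steepest slope (0.70). Rpl35 (-0.12), Rpl3 (-0.10), Rps19l2 (-0.04) and Rps14 (-0.03) were among the members with slopes below 0. Members also moved together: r between a member and the sum of the others had a median of 0.906 and exceeded 0.5 for 70 of 77. These correlations share library depth between their points.

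Amitrole against vehicle at PD16 asked which members shifted with exposure to the chemical. Counts were tested with edgeR's quasi-likelihood test, and a gene was called where its p, adjusted by Benjamini-Hochberg over all 4906 genes tested, was under 0.05. In Ami25, 59 of 77 members were called lower and 0 higher, 32 of the 60S subunit and 27 of the 40S subunit, while over all genes 27.5% were called lower and 27.9% higher. In Ami50, 40 members were called lower (22 and 18) and 0 higher, with 26.5% of all genes lower and 27.1% higher. The median log2 fold change of the members was -0.45 in Ami25 and -0.28 in Ami50, where the medians of all genes tested were 0.01 and 0.02. All 77 members had a negative estimate in Ami25, and 76 in Ami50. The quartiles of the members lay between -0.54 and -0.30 in Ami25 and between -0.39 and -0.19 in Ami50.

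Rpl27, a 60S protein, had 4205.4 to 4737.0 CPM in the 10 PD16 vehicle libraries (median 4429.9), 1463.4 to 2292.5 in Ami25 (median 1795.6) and 1479.4 to 2659.7 in Ami50 (median 1816.3). No amitrole library came near the lowest vehicle library. Its log2 fold change was -1.21 ± 0.12 (SE; 2.32-fold lower, edgeR adjusted p = 7.434e-13) in Ami25 and -1.08 ± 0.12 (2.11-fold, adjusted p = 1.545e-11) in Ami50, the lowest estimate of any member in both comparisons.
Rps25, a 40S protein needed by several viral internal ribosome entry sites, had 3175.4 to 3865.6 CPM in vehicle (median 3652.0), 1423.4 to 2014.2 in Ami25 (median 1668.2) and 1347.9 to 2443.9 in Ami50 (median 1691.6). Again the groups did not overlap. It was lower by log2 -1.04 ± 0.12 in Ami25 (edgeR adjusted p = 9.516e-11) and by -0.89 ± 0.12 in Ami50 (adjusted p = 3.636e-09).

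Rpl22l1 is the paralog of Rpl22 that can take its place in the 60S subunit. It had 1043.5 to 1469.5 CPM in vehicle (median 1277.4), 499.1 to 838.3 in Ami25 (median 638.3) and 562.2 to 855.1 in Ami50 (median 696.9). All amitrole libraries lay below all vehicle libraries, and edgeR gave log2 fold changes of -0.93 ± 0.10 (adjusted p = 3.606e-12) and -0.78 ± 0.10 (adjusted p = 3.32e-10). Rpl22 itself had medians of 690.2 CPM in vehicle, 549.7 in Ami25 and 532.6 in Ami50 with overlapping ranges, and was not called (-0.36, edgeR adjusted p = 0.06667, and -0.15, adjusted p = 0.4565).

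The ratio of Rpl22l1 to Rpl22 counts shows the pair within each library. It was 1.8 ± 0.234 (SD, n = 10) in PD16 vehicle, 1.21 ± 0.252 (SD, n = 11) in Ami25 and 1.22 ± 0.256 (SD, n = 12) in Ami50, and 0.977 ± 0.14 (SD, n = 6) in GD21 vehicle. The lowest vehicle library at PD16, at 1.507, was within the amitrole range, which reached 1.679 in Ami25 and 1.538 in Ami50. Within every group r between this ratio and log2 of the library total was negative. It ran from -0.913 (GD21 Ami50) to -0.156 (PD16 Ami25), with -0.643 in PD16 vehicle. In GD21 vehicle r was -0.638, and 0.801 without the 2 libraries farthest from the median total. The part of depth in the Rpl22l1 to Rpl22 ratio was not tested. The other paralog pair among the members, Rps27l and Rps27, kept mean ratios between 0.163 and 0.177 in all 10 groups.

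The genes of the 40S head and the mRNA entry path were called lower in 9 of 11 cases in Ami25 and 5 of 11 in Ami50. These counts, and those for other places in the ribosome below, stand beside 59 and 40 of all 77 members. Of all genes, 27.5% and 26.5% were called lower. Whether places in the ribosome differ was not tested. Rps10, which contacts incoming mRNA, had 466.2 to 644.3 CPM in vehicle (median 543.8), 209.5 to 370.2 in Ami25 (median 275.8) and 193.4 to 484.6 in Ami50 (median 285.2). Ami25 lay below vehicle throughout and Ami50 overlapped it with its highest libraries. The fold changes were -0.91 ± 0.18 (edgeR adjusted p = 1.508e-05) and -0.71 ± 0.17 (adjusted p = 0.0004017). Rps3, which also acts in DNA repair, was lower by -0.60 and -0.51.

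Among the 13 genes of the 40S body and platform, which include Rps25, 11 were called lower in Ami25 and 8 in Ami50. Rps13 went from a vehicle median of 2229.6 CPM to 1365.4 in Ami25 (-0.68 ± 0.16, edgeR adjusted p = 0.0003274) and 1351.1 in Ami50 (-0.49, adjusted p = 0.007117). Rps6, the 40S protein phosphorylated downstream of mTOR, had medians of 5064.8, 3325.6 and 3400.4 CPM and fold changes of -0.48 and -0.37, both called. Rps27a, which is made as a fusion with ubiquitin, was called in Ami25 (-0.45, edgeR adjusted p = 0.02506) and had an adjusted p of 0.2923 in Ami50. Rpsa, the laminin receptor protein of the 40S platform, had medians of 1532.5, 1215.2 and 1218.6 CPM and was not called (-0.30, edgeR adjusted p = 0.09785, and -0.19). Rps27 (-0.30 and -0.27) and its paralog Rps27l (-0.35 and -0.22) were called lower in both doses, each in 13 of 15 other settings for Ami50. Rps4x, encoded on the X chromosome, was called only by the Ami25 test (-0.47, adjusted p = 0.01974; Ami50 -0.25), and the difference between the doses was not called.

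Rpl30, a 60S protein that also binds its own transcript, had 932.6 to 1316.4 CPM in vehicle (median 1072.4), 511.4 to 787.5 in Ami25 (median 634.8) and 504.1 to 1156.2 in Ami50 (median 630.1). Ami25 lay below vehicle throughout, Ami50 overlapped it, and both were called (-0.77 ± 0.17, edgeR adjusted p = 0.0001373, and -0.50 ± 0.17, adjusted p = 0.009206). Rpl7, another 60S protein, was lower by -0.40 and -0.33, with every Ami25 library (at most 1356.4 CPM) under the vehicle minimum of 1364.4.

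On the 60S side both proteins of the 5S particle were called lower in Ami25. Rpl5 had 1231.0 to 1517.1 CPM in vehicle (median 1456.4), 755.6 to 1041.6 in Ami25 (median 856.7) and 701.8 to 1076.6 in Ami50 (median 857.4), with no overlap. Its fold changes were -0.66 ± 0.09 (edgeR adjusted p = 7.588e-09) and -0.63 ± 0.09 (adjusted p = 1.285e-08). Rpl11 was lower by -0.47 in Ami25 (edgeR adjusted p = 0.004984), and had -0.31 with an adjusted p of 0.06121 in Ami50.

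Of the 6 genes around the peptidyl transferase centre and exit tunnel, 4 were called lower in Ami25 and 3 in Ami50. Rpl3, the large protein next to the catalytic centre, had medians of 5307.8 CPM in vehicle, 3667.5 in Ami25 and 3478.4 in Ami50, and fold changes of -0.41 ± 0.08 and -0.45 ± 0.08. Rpl39, a small protein of the tunnel wall, had -0.50 in Ami25 (edgeR adjusted p = 0.0625) and -0.18 in Ami50. The stalk, which recruits elongation factors, had 2 of 4 genes called in Ami25 and 1 in Ami50: Rplp0, its base, was lower in both by -0.29 (edgeR adjusted p = 0.002632 and 0.002232), Rplp2 in Ami25 by -0.50, and Rplp1 (-0.29 and -0.09) in neither. At the rim of the exit tunnel 2 of the 7 genes were called in each dose, near the share of all genes called lower. Among the members, 2 at the upper end stayed near vehicle: Rpl41 (-0.13 and -0.12) and Rpl38 (-0.10 and 0.12, edgeR adjusted p = 0.5335 and 0.442). Rpl38, which is known for its part in translating Hox mRNAs, had medians of 1870.6, 1755.7 and 1824.0 CPM.

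**Figure D3:**
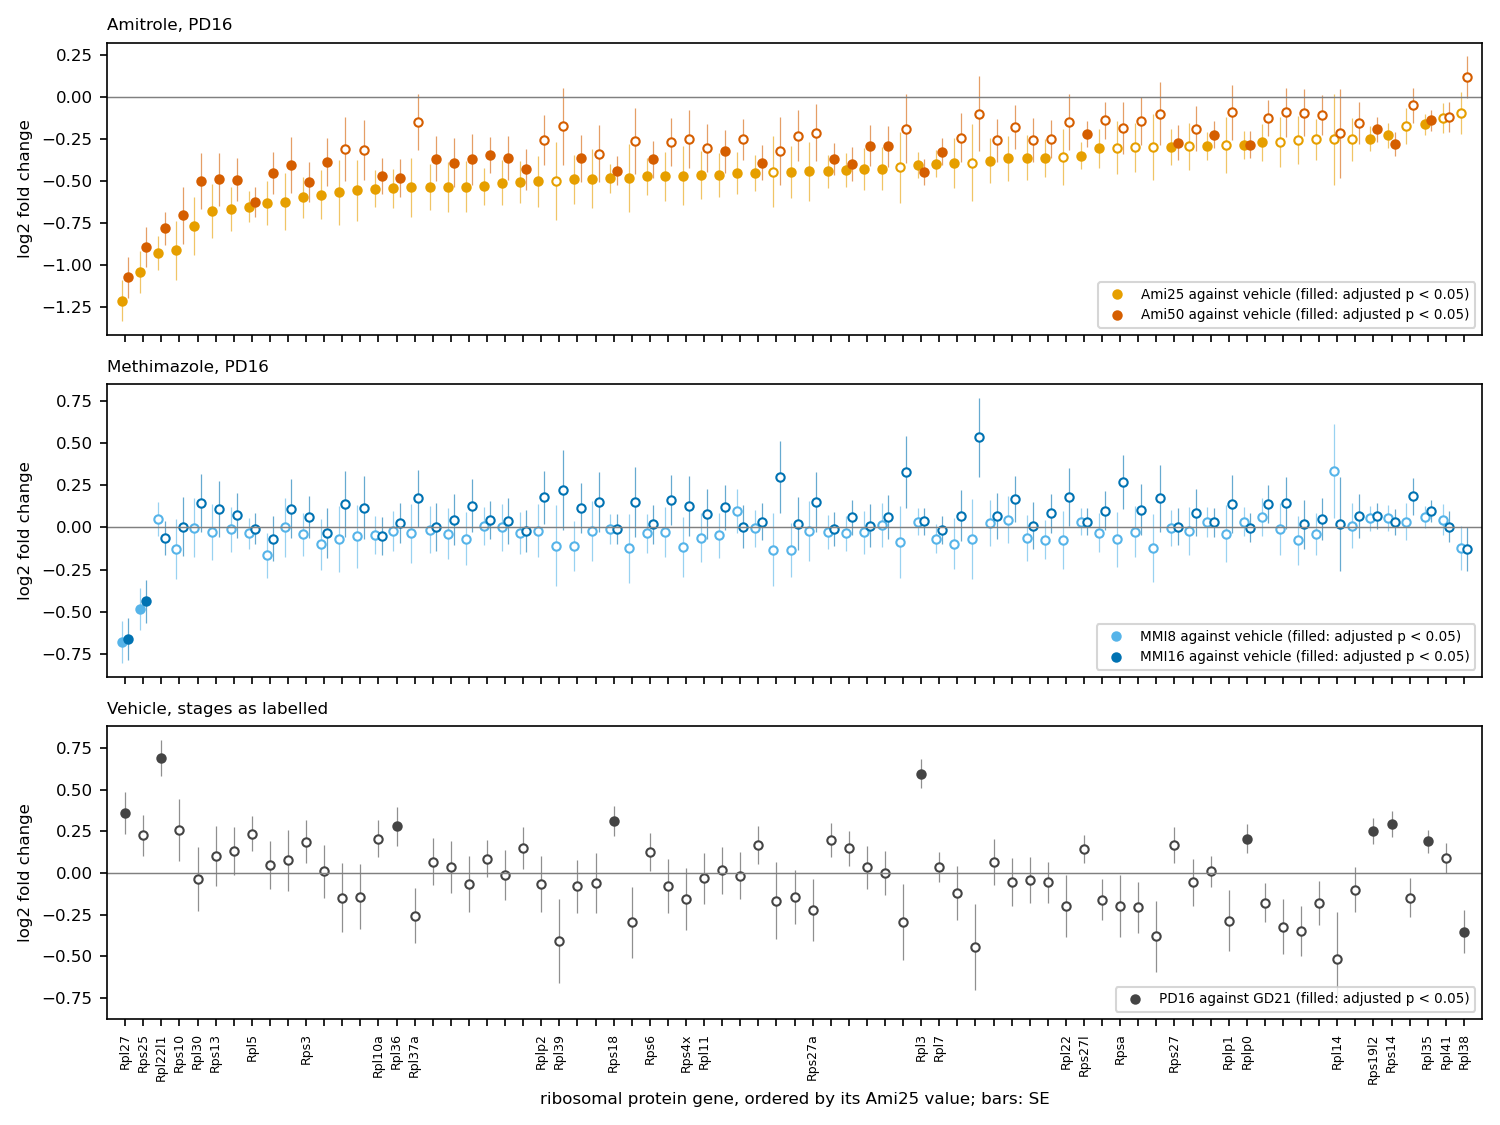
Log2 fold change (vertical axes) of 75 of the 77 members (those named in the text are labelled), ordered by its Ami25 value (horizontal axis), against vehicle in amitrole libraries (top) and methimazole libraries (middle) labelled PD16, and in PD16 against GD21 vehicle (bottom). Bars are SE and filled points were called by edgeR; all members shown lie below 0 in Ami25, and Rpl27 and Rps25 stand apart in MMI8 and MMI16.

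Ranges without overlap gave a stricter view. Every Ami25 library was below every vehicle library for 21 members and every Ami50 library for 11, where 7.56% of the genes at the floor had this in each dose. The summed 60S counts were 1.478 ± 0.0261 (SD, n = 10) times the 40S counts in PD16 vehicle and 1.582 ± 0.0257 (SD, n = 11) in Ami25, from 1.536 to 1.622 against at most 1.53 in vehicle, and 1.557 ± 0.0422 (SD, n = 12) in Ami50. Within every group r between this ratio and log2 of the library total was negative (-0.975 to -0.353). In GD21 vehicle, however, Spearman's rho was -0.086, and r was 0.748 without the 2 libraries farthest from the median total. The part of depth in the 60S to 40S ratio was not tested.

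The number of lower members in Ami50 depended on the scaling (21 with upper quartile factors, where 20.5% of all genes were lower, and 62 without scaling, where 30.7% were) and on 8 libraries. Without those with Eif2s3y under 10 CPM, 10 members were called lower, where 21% of all genes were lower against 26.5% with all libraries. Rpl27 (-0.87), Rpl22l1 (-0.72), Rps25 (-0.62), Rpl5 (-0.61), Rpl3 (-0.44), Rps18 (-0.36) and Rpl7 (-0.25) were among them. Of the members named above as lower in Ami50, Rps10 (-0.46), Rps3 (-0.33), Rps13 (-0.25), Rpl30 (-0.23), Rps6 (-0.20), Rplp0 (-0.18), Rps27l (-0.15) and Rps27 (-0.12) were not called in that setting, in which the group kept 4 libraries. Those 4 had a share of 18.39% ± 1.774 (SD, n = 4), against 15.44% ± 2.466 (SD, n = 8) in the 8. In Ami25 the count was 40 with upper quartile factors (21.4% of all genes) and 74 with only the compared libraries fitted (29.3%). With log2 of the library total as a covariate, a setting added after seeing the data, 59 members were lower in Ami25 (28.3% of all genes) and 41 in Ami50 (27.6%), and Rpl38 was called higher in Ami50 (0.24).

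The 2 amitrole doses were not told apart. Between Ami50 and Ami25 at PD16, 0 members and 0% of all genes were called by edgeR, DESeq2 also called 0 members, and 1 member had an unadjusted p under 0.05. The estimates of 74 members were positive, with a median of 0.15. Ami50 against MMI16, which compares the higher doses of the chemicals, gave 54 members lower and 0 higher with a median of -0.38, where 24.9% of all genes were lower and 22.6% higher. Rpl22l1 (-0.72 ± 0.10, edgeR adjusted p = 7.701e-09), Rps10 (-0.71) and Rpl30 (-0.65), a 60S protein, were lowest. The 54 became 10 without the 8 libraries low in Eif2s3y (17.5% of all genes lower) and 24 without libraries high in Alb (21.7%), and in both settings Rpl38 was called higher (0.45 and 0.42).

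In methimazole against vehicle at PD16 most members had values near vehicle, and 2 were called lower. In MMI8 Rpl27 and Rps25 were called lower and 0 members higher, where 6.89% of all genes were lower and 1.47% higher. In MMI16 the same 2 genes were called lower and 0 higher, where 7.26% of all genes were lower and 0.856% higher. The median over all members was -0.03 in MMI8 and 0.06 in MMI16, beside 0.01 and 0.07 over all genes, and the MMI16 median was -0.10 without the library high in Alb, which is replicate 9.

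Rpl27 had 2532.0 to 3269.2 CPM in MMI8 (median 2806.8), all below the vehicle minimum of 4205.4, and 2036.9 to 4300.9 in MMI16 (median 2703.7). Only 1 MMI16 library, replicate 9, reached the vehicle range. The fold changes were -0.68 ± 0.13 (edgeR adjusted p = 3.023e-05) and -0.66 ± 0.13 (adjusted p = 3.808e-05). Rps25 had 2201.3 to 3060.3 CPM in MMI8 (median 2582.7), below the vehicle minimum of 3175.4, and 2041.8 to 3634.5 in MMI16 (median 2458.4), with fold changes of -0.48 ± 0.13 (edgeR adjusted p = 0.004789) and -0.44 ± 0.13 (adjusted p = 0.01293). With upper quartile factors the MMI16 call of Rps25 was lost (-0.33, adjusted p = 0.0636). These were the 2 members for which every MMI8 library was below every vehicle library (2.66% of genes at the floor). In MMI16 no member met this (3.36% of genes).

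At GD21 the same 2 genes gave no such gap. Rpl27 had 2924.9 to 3617.4 CPM in GD21 vehicle (median 3113.3), 2928.1 to 3532.4 in MMI8 and 2547.3 to 3264.9 in Ami25, all overlapping. Rps25 had 2527.7 to 3031.2 CPM in GD21 vehicle (median 2799.4). For both genes the PD16 vehicle libraries lay above the libraries of all the other 9 groups, with MMI16 replicate 9 as the exception.

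**Figure D4:**
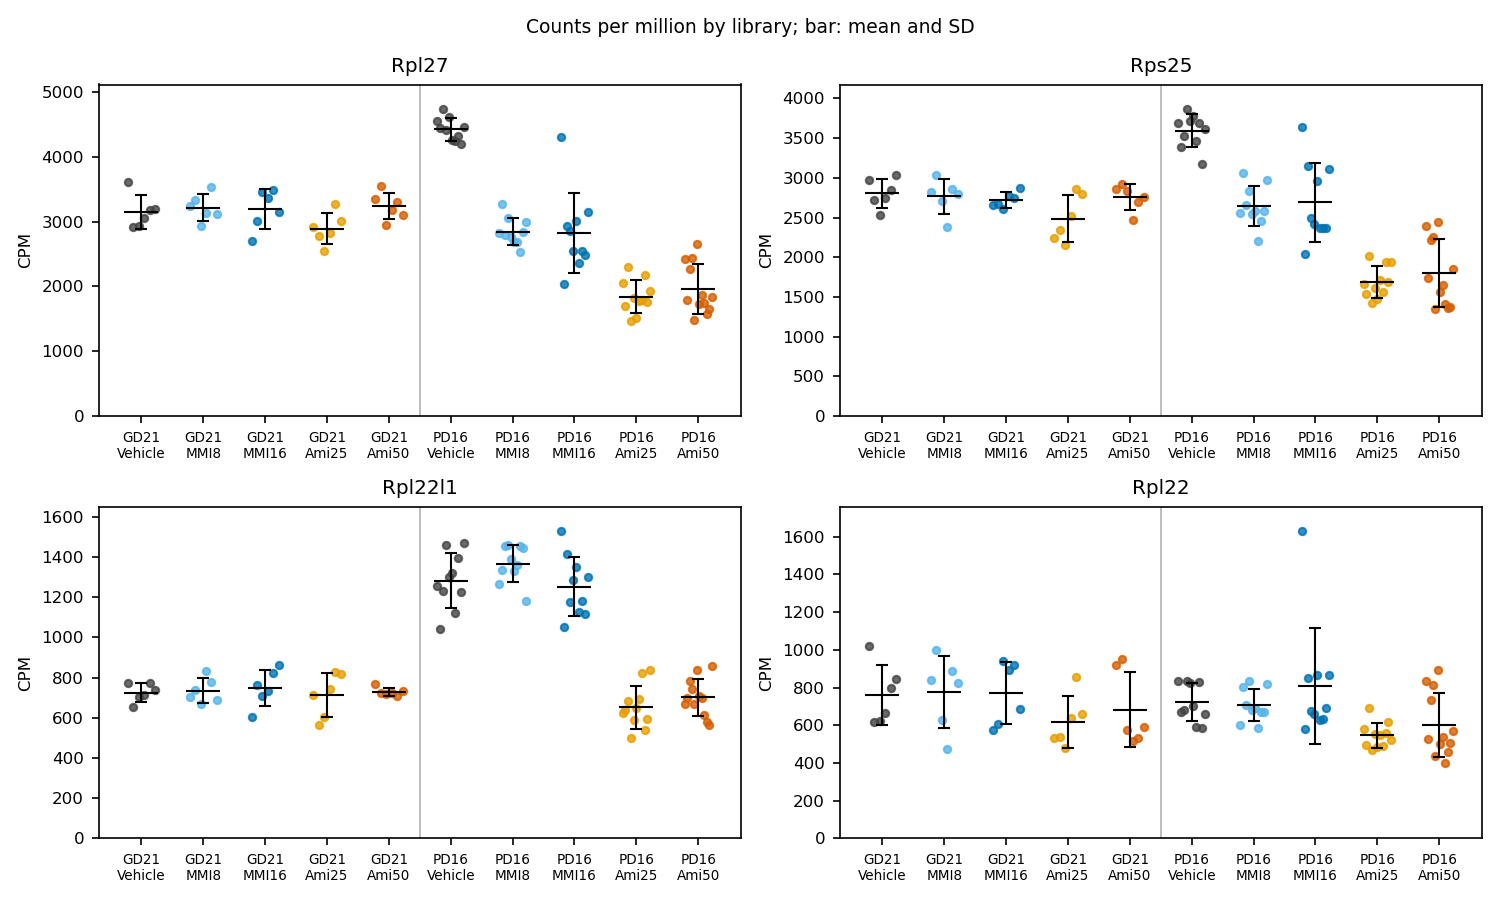
CPM (vertical axes) of Rpl27, Rps25, Rpl22l1 and Rpl22 in each library (points) of the 10 groups, with the mean and SD of each group. PD16 vehicle is highest for Rpl27 and Rps25, Rpl22l1 is high in PD16 vehicle and methimazole libraries and low in amitrole libraries, and Rpl22 overlaps in all groups.

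The remaining members depended on how depth was treated. With log2 total as a covariate 43 members were called higher in MMI8 (5.65% of all genes) and 30 in MMI16 (3.4%), with medians of 0.24 and 0.22, while Rpl27 (-0.42 and -0.53) and Rps25 (-0.22 and -0.30) were still called lower. MMI8 libraries had a median total of 391745.5 and vehicle libraries 627048.5. Between MMI16 and MMI8 edgeR and DESeq2 each called 0 members, 2 had an unadjusted p under 0.05, and 0.183% of all genes were called higher and 1.9% lower.

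Vehicle libraries labelled PD16 against those labelled GD21 asked how members differ between the labelled stages. Since the globins of the PD16 vehicle libraries go against their label, the differences were not read as effects of age. Of 77 members 11 were higher and 1 lower, where 24.4% of 6287 genes were higher and 22.1% lower, and the median over members was -0.01 (0.04 over all genes). Rpl22l1 had 652.4 to 775.0 CPM at GD21 (median 724.5) and 1043.5 to 1469.5 at PD16 (median 1277.4), without overlap. It was higher by log2 0.69 ± 0.11 (edgeR adjusted p = 8.881e-08). Rpl3 had 2816.5 to 3388.0 CPM at GD21 and 4465.6 to 5476.8 at PD16, also without overlap (0.60 ± 0.09, edgeR adjusted p = 3.3e-08).
Rpl27 (0.36 ± 0.13), Rps18 (0.31), Rps14 (0.29), Rpl36 (0.28), Rps19l2 (0.26), Rplp0 (0.21) and Rpl35 (0.19) were among the other called rises. Rpl38 fell by 0.35 (edgeR adjusted p = 0.01976), from a median of 2245.0 to 1870.6 CPM with overlapping ranges. Rplp0 was called in 6 of 15 other settings and Rpl38 in 12, and 10 members were lower when only the vehicle libraries were fitted (24.5% of all genes). Without libraries high in Alb 7 members were higher (19.8% of all genes). For 10 members every PD16 vehicle library was above every GD21 vehicle library (11.7% of genes at the floor).

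The 11 higher members had small depth slopes, with a median of 0.059. The median standard error of their log2 fold changes was 0.09. The 65 uncalled members had a median slope of 0.388. GD21 vehicle libraries held 945689 to 1627114 counts and PD16 vehicle libraries 409709 to 1052882, so depth and stage overlapped only narrowly. With log2 total as a covariate 67 members were higher (21.3% of all genes) and 0 lower, with a median of 0.38.

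At GD21 none of the 7 comparisons called a member. MMI8, MMI16, Ami25 and Ami50 against vehicle, MMI16 against MMI8, Ami50 against Ami25 and Ami50 against MMI16 gave 0 members in edgeR and in DESeq2, and 0% of all 6236 genes in edgeR. At an unadjusted p under 0.05 edgeR had 23 members in Ami25, 1 in Ami50, 1 in Ami50 against Ami25 and 0 in the other 4. The median over members was 0.00 in MMI8, -0.03 in MMI16, -0.24 in Ami25 with 73 negative estimates, and -0.14 in Ami50 with 69. The lowest member in Ami25 was Rpl14, a 60S protein, at -0.70 (edgeR adjusted p = 0.473). Ami25 libraries at GD21 had a median total of 797417.5 and vehicle libraries 1097632, and the part of this gap in the member median was not tested.

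The interaction asked whether the amitrole and methimazole effects differ between the labelled stages. For Ami50, 15 of 77 members had a lower effect at PD16 than at GD21 and 0 a higher one. Of all genes 16.4% went each way, so the share of lower members was near that of all genes. Rpl27 (-1.18 ± 0.17, edgeR adjusted p = 3.427e-08), Rps25 (-0.92 ± 0.17, adjusted p = 7.113e-06) and Rpl22l1 (-0.85 ± 0.15, adjusted p = 1.929e-06) led, and Rps10, Rpl3, Rpl5 and Rps18 were also called. The count was 7 without the libraries low in Eif2s3y (15% of all genes lower), with a member median of 0.04 in place of -0.20, and Rpl27 (-0.95), Rps25 (-0.63) and Rpl22l1 (-0.76) were still called. It was 6 with upper quartile factors (12.8%) and 33 with log2 total as a covariate (17.8%). For MMI16 the interaction was called for Rpl27 (-0.71 ± 0.18, edgeR adjusted p = 0.002839) and no other member, with 5.11% of all genes lower and 0.111% higher. Rps25 had -0.42 with an adjusted p of 0.2387.

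Members were also counted by the form of their start. Of the 23 members with C and 4 pyrimidines at the annotated start, 16 were lower in Ami25 with a median of -0.38, and of the 38 other matched members 28, with a median of -0.45. In Ami50 these counts were 12 of 23 and 17 of 38, both with a median of -0.26. Rpl22l1, which has no pyrimidine at its start, and Rps18, which has a run of 9, were both called lower in both doses.

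Genes of the same pathway were read from lists of translation factors with TOP starts, ribosome assembly factors, RNA polymerase I and the regulators. Of 43 tested assembly factors 24 were lower and 2 higher in Ami25 (median -0.38), and 23 and 2 in Ami50 (median -0.36). The nucleolar proteins Fbl (-1.05 and -0.93), which methylates ribosomal RNA, Npm1 (-0.85 and -0.79), Nop56 (-1.16 and -1.09) and Ncl (-1.10 and -0.67) were among them. The summed assembly list had 5675.8 to 6720.8 CPM in vehicle, 3886.9 to 4656.6 in Ami25 and 3795.4 to 4401.5 in Ami50, without overlap.

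Among 31 translation factors and other TOP mRNAs 17 were lower and 2 higher in Ami25 and 14 and 4 in Ami50. Eif4a1, the helicase of initiation, was lower with log2 fold changes of -1.70 and -1.63. Eef1b2 had -0.98 and -0.81, and Rack1, the scaffold on the 40S head, -0.59 and -0.46. The elongation factors Eef1a1 (0.04 and 0.14) and Eef2 (0.14 and 0.08) and the TOP mRNA Tpt1 (0.13 and 0.16) were not lower.

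RNA polymerase I genes had 5 of 13 lower and 2 higher in Ami25 and 4 and 1 in Ami50, with Polr1e at -0.82 and -0.64. A separate list of p53 pathway genes had 12 genes in the count table, and 2 of them are given here. They went in opposite directions: Mdm2 was lower (-1.47 and -1.54) and Ccng1, a cyclin, higher (0.89 and 0.84). Of the 10 regulators tested 1 was higher and 1 lower in Ami25, and 3 and 1 in Ami50: Rps6ka1, a kinase of Rps6, was higher in both (0.32 and 0.32), and Maf1 (0.45), a repressor of RNA polymerase III, and Nprl2 (0.48), which restrains mTOR, in Ami50. Mtor was not called (0.47, edgeR adjusted p = 0.06284, and 0.22, adjusted p = 0.4348). Of 8 tested genes of the integrated stress response 3 were higher and 1 lower in each dose, with Asns, which makes asparagine, at 1.36 and 1.31 and the transcription factor Ddit3 at 1.57 and 1.23. Mitochondrial ribosomal proteins, which form another ribosome, had 14 higher and 8 lower of 68 in Ami25 (median 0.07) and 15 and 9 in Ami50 (median 0.10).

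In methimazole libraries fewer of these genes were called. The assembly list had 1 higher and 1 lower in MMI8 and 0 and 1 in MMI16, where Emg1 had -0.53, with a list median of 0.12 in each. The translation list had Eif4a1 (-0.77 and -0.98) and Hnrnpa1 (-1.16 and -1.25) lower in MMI8 and MMI16, and Eif3a (0.48) higher in MMI16. Polr1e was lower in MMI8 (-0.56) and not called in MMI16 (-0.03). Mdm2 was lower in both (-0.98 and -1.36). Between the vehicle groups of the labelled stages, 24 of 45 assembly factors were higher at PD16 and 1 lower (median 0.47), among them Nop56 (1.34), Nhp2 (1.05), Npm1 (0.61) and Fbl (0.57), while 13 of 31 translation factors were higher and 7 lower, with Eef1a1 at -0.50 and Tpt1 at -0.42. The transcription factor Myc, which drives ribosome genes, was higher by 0.73.

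**Figure D5:**
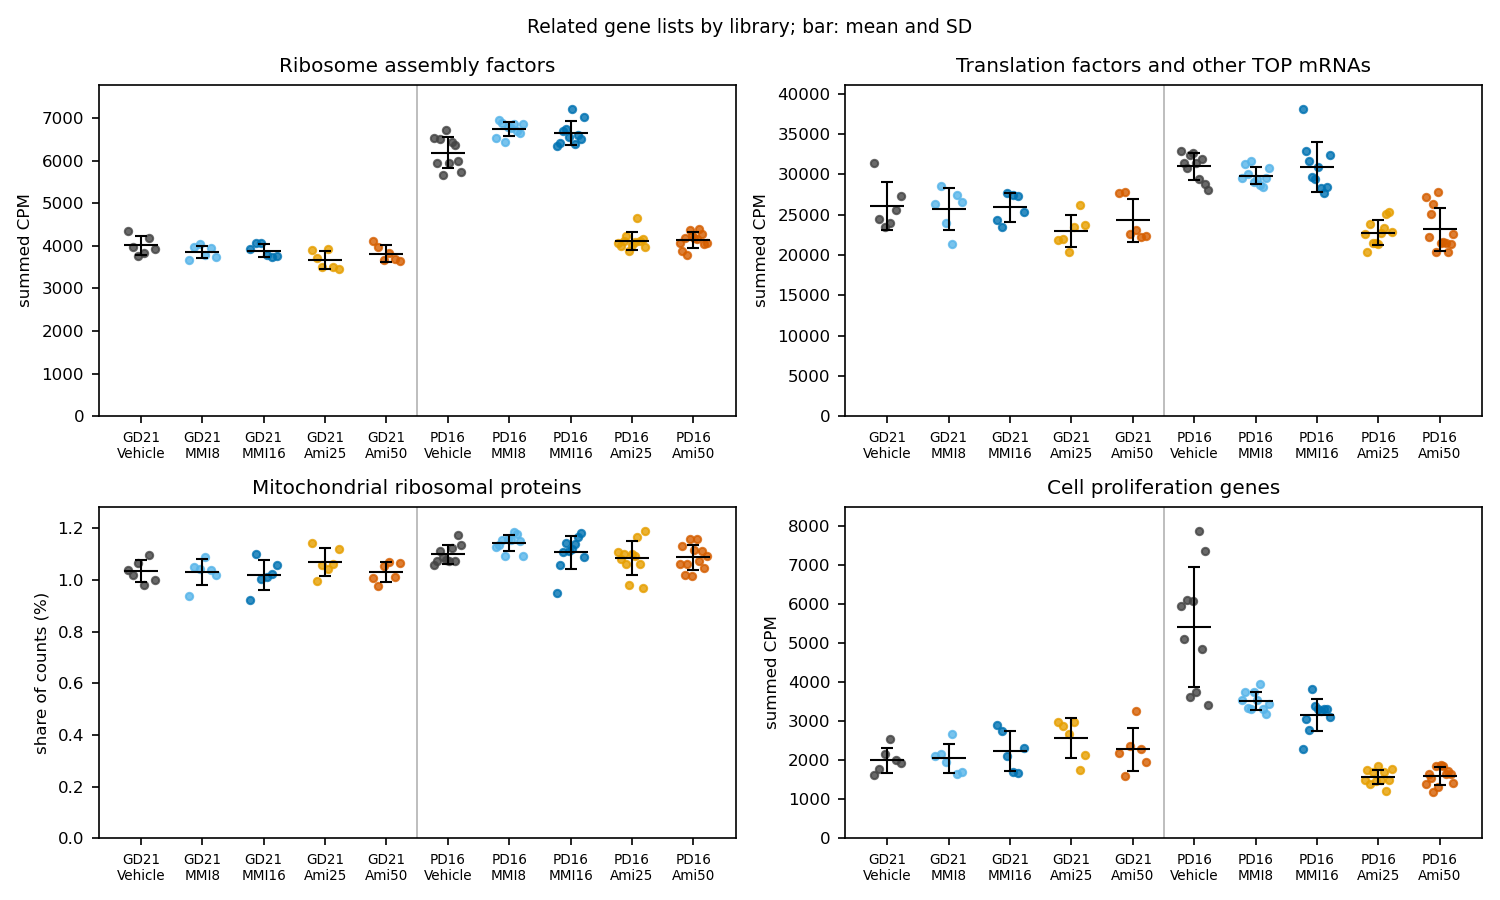
Summed CPM of ribosome assembly factors, of translation factors and other TOP mRNAs and of proliferation genes, and the share of counts of mitochondrial ribosomal proteins in percent (vertical axes), in each library (points) of the 10 groups, with mean and SD. Assembly factors lie between 5675.8 and 6720.8 CPM in PD16 vehicle and between 3795.4 and 4656.6 CPM in the PD16 amitrole libraries, while mitochondrial ribosomal proteins stay near 1% in all groups.

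Markers of other cells moved with the amitrole groups. The proliferation list summed to 5416.4 CPM ± 1544.5 (SD, n = 10) in PD16 vehicle, to means of 3518.8 and 3164.6 in MMI8 and MMI16, 1574.3 in Ami25 and 1593.1 in Ami50, and 2003.8 in GD21 vehicle. Of its 20 genes 18 were lower in Ami25 and 16 in Ami50. The sum of leukocyte genes went the other way, from a mean of 301.1 CPM in PD16 vehicle to 634.1 in Ami25 and 692.0 in Ami50. This sum does not speak for each gene of the list. Mrc1 was called lower against vehicle in MMI8 (-1.63) and MMI16 (-2.73), and higher in Ami50 than in MMI16 (1.61). That difference was smaller than the MMI16 fall, so the Ami50 estimate of Mrc1 was also below vehicle, against the direction of the sum. Endothelial genes summed to 600.4 to 875.6 CPM in PD16 vehicle, and to 242.6 to 458.4 in Ami25, 246.9 to 429.5 in Ami50, 338.3 to 510.8 in MMI8 and 301.6 to 533.9 in MMI16, all below vehicle. Of 8 tested, 4 were lower in each amitrole dose and 2 in each methimazole dose, with Pecam1 at -2.30 and -2.28 in Ami25 and Ami50 and at -1.92 and -1.96 in MMI8 and MMI16. Of 5 liver genes tested 3 were higher in Ami25 and 5 in Ami50, with Alb at 3.14 and 3.78, while the median of the summed list was 133.2 CPM in vehicle, 126.5 in Ami25 and 104.2 in Ami50. The part of these cells in the lower level of ribosomal protein genes was not tested.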

How the data were processed

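RNA was measured by bulk RNA barcoding (BRB-seq), which sequences 3′ ends of polyadenylated RNA, per the labels' protocols. Per the submitters' processing notes, BWA 0.7.4.4 and the build rn6 were used. The deposited values are raw counts per gene symbol and library; how they were counted, with which annotation, strand setting and treatment of barcodes, is not given in the sources used here. Libraries of a group were compared in 331 pairs, and the lowest chi-square per degree of freedom was 1.303, so none was a copy of another. CPM are counts over the library total.

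Counts were fitted in R 4.3.3 with edgeR 4.0.16 (filterByExpr with a minimum count of 10, TMM factors, robust quasi-likelihood fit and F test), 5 groups of a stage together and all 10 for results between stages, which left 4906 genes at PD16, 6236 at GD21 and 6287 over both. Adjusted p-values are Benjamini-Hochberg over all genes tested. Simulated counts were used only for the PD16 fit, for Ami50 against vehicle, with randomly chosen genes changed in both directions. The other fits, and a shared shift of many genes in the same direction, were not simulated. Alternatives were other scalings, filters, covariates, left-out libraries and DESeq2 1.42.0. Named members were the 6 largest called rises and falls per PD16 comparison with vehicle and between vehicle groups (3 elsewhere), those highest, lowest and nearest the floor in CPM, and a set of 18 named by function. The members and gene lists were chosen with earlier results of these data known. Genes named as non-members followed the same rule for lists. Some genes that the rule named are not reported here.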

Additional observations from a re-analysis of the deposited data

Results flagged for a closer look

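One MMI16 library labelled PD16, replicate 9, stood far from the other 9 of its group. Its summed share was 32.74%, its ratio of 60S to 40S counts 1.367 and its ratio of Rpl22l1 to Rpl22 0.9379, and it had 4300.9 CPM of Rpl27, 1628.5 of Rpl22, 1158.4 of Rps10 and 3679.9 of Rpl39. It also had the highest total of the PD16 libraries (1186973 counts) and 507.2 CPM of Alb.

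At GD21, MMI8 replicate 68 stood apart in the Rpl22l1 to Rpl22 ratio (1.747), vehicle replicate 41 in Rpl5 (1470.1 CPM), MMI8 replicate 45 in Rps27 (2281.3 CPM) and Ami50 replicate 88 in Rps27 (2115.3 CPM). Of 144 groups of values checked for a library apart from its group, 11 had one, where chance gives about 1 in 20. The PD16 Ami25 and Ami50 groups, the largest, were not part of this check.

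The effect of Ami50 differed between the labelled stages for 15 of 77 members, all lower at PD16. This share was near the 16.4% of all genes that were lower, and fewer members were called without the libraries low in Eif2s3y. Rpl27 was at -1.18, Rps25 at -0.92 and Rpl22l1 at -0.85. The effect of MMI16 differed for 1 member, Rpl27 at -0.71, where 5.11% of all genes were lower.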

How the results depend on the processing

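The count of members higher in PD16 against GD21 vehicle was 11 (24.4% of all genes). It was 7 without libraries high in Alb (19.8%) and 67 with log2 library total as a covariate (21.3%), a setting added after seeing the data. It was 25 without scaling and 6 without a filter. The shares of all genes in these last settings are not given, so their counts were not read as results about the members. The count of lower members was 1 and became 2 with DESeq2 size factors, with TMM factors computed without the members, with upper quartile factors, with the DESeq2 Wald test, with a filter at a mean of 10 CPM, without the library of low total and without libraries low in Eif2s3y; it was 10 with the vehicle libraries fitted alone and 0 without scaling or with log2 total as a covariate. For Ami50 the 40 lower members became 62 without scaling, 21 with upper quartile factors and 10 without libraries low in Eif2s3y, and 1 member was higher with log2 total as a covariate. For MMI16 upper quartile factors gave 1 higher (Rpl35 at 0.21) and 1 lower member (Rpl27). With log2 total as a covariate 43 members were higher in MMI8 and 30 in MMI16. That setting alone turned estimates of named members: in MMI8 Rplp1 to 0.32, Rplp2 to 0.32, Rpl11 to 0.26, Rps6 to 0.21, Rps27a to 0.38, Rpl22 to 0.29, Rpl39 to 0.39 and Rps4x to 0.27, and between stages Rplp1 to 0.26, Rplp2 to 0.45, Rpl11 to 0.42, Rps27a to 0.35, Rpl22 to 0.36, Rpl39 to 0.33 and Rps4x to 0.40. The cause was not tested. In Ami25 the count ran from 40 (upper quartile factors, 21.4% of all genes) to 74 (only the compared libraries, 29.3%). Upper quartile factors moved the median of all genes by 0.11 in MMI8, 0.17 in MMI16 and 0.14 in both amitrole doses. No paired analysis was possible because library numbers are not shared between the groups compared and litters are not given. At the lowest totals, differences in members of low CPM may not be detectable.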
